A study of Mus musculus with 42 samples.

Results

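The 8 genes described here are those of B cells and plasma cells that were listed by symbol: the antibody chain genes Igha, Ighm and Igkc, the joining chain gene Jchain, the plasma cell chaperone gene Mzb1, and the B cell surface genes Cd79a, Cd79b and Ms4a1. They are 8 of the 44674 genes in the count table, and all 8 were expressed highly enough to be tested among 21168 genes. The filter on low counts asks for counts in as many libraries as the smallest group holds, so a gene can pass through the groups in which it is high.

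Samples were the main olfactory epithelium of mice, all of them adult C57BL/6NCrl males, an inbred strain to which the labels add no allele. The mice met an odour for 1 h: that of normal chow diet (NCD, 6 pools), of a bacon-flavoured diet (Bacon, 5 pools) or of a lard-based high-fat diet (HFD, 5 pools), while the No Odour group (5 pools) met none. Each of the 21 pools joined 4 epithelia and gave 2 libraries, the input, which is RNA of the whole homogenate, and the pulldown, which is RNA captured with an antibody against phosphorylated ribosomal protein S6, a mark that appears on ribosomes of active neurons. The labels give no day, cage or dissection batch, and they do not say whether pools of a group were handled separately, so p-values measure the spread between these pools, which may be technical.

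B cells carry antibody on their surface, where the products of Cd79a and Cd79b pass on its signal. When they mature into plasma cells they lose most surface genes and make antibody in bulk. In a mucosa such as the nose, many plasma cells lie beneath the epithelium and around glands and secrete IgA, which the joining chain links into polymers and which the polymeric immunoglobulin receptor of epithelial cells carries into the mucus. Antibodies pair a heavy chain (Igha for IgA, Ighm for IgM, the Ighg genes for IgG) with a light chain, in mice mostly kappa (Igkc). Each chain also holds a variable segment drawn from many V genes, which differ from one B cell clone to the next.

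The constant-region genes can be counted apart to different degrees, which bears on every value below. The sequences that follow are the first 90 coding bases of 5 of them on the coding strand, 5′ to 3′, from the GENCODE M21 transcripts of GRCm38. Capitals mark the positions at which Ighg2b and Ighg2c differ from each other, and these genes are shown because their counts diverged between the Bacon and HFD groups although they are so alike.
Igha: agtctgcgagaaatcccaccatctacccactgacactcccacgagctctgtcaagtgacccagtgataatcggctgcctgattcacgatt
Ighm: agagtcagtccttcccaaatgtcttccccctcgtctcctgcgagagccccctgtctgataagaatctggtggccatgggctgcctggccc
Ighg2b: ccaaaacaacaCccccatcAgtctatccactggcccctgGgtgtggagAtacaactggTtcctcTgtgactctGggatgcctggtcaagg
Ighg2c: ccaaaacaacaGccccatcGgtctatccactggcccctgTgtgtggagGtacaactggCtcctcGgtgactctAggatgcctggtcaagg
Igkc: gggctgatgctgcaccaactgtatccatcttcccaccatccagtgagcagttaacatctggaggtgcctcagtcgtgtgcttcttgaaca

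Ighg2b and Ighg2c were identical at 83 of these 90 positions, whereas Igha and Ighm shared 26 of 90 when set side by side without gaps. Igha (chromosome 12, 113254830 to 113260236), Ighm (chromosome 12, 113418558 to 113422730), Ighg2b (chromosome 12, 113302965 to 113307933) and Ighg2c (chromosome 12, 113285325 to 113288932) lie on the minus strand of the heavy chain locus. Igkc (chromosome 6, 70726435 to 70726966, plus strand) lies within the span of the non-coding gene Gm30211, with which it shares no exon. Of the 31-base words in their exons, 0% in Igha, Ighm and Igkc recurred in another gene, against 9.29% in Ighg2b and 15.0% in Ighg2c, so an allocation of reads between the last pair is less certain.

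Jchain (chromosome 5, 88519809 to 88527891, minus strand) shared 0.288% of its words with other genes, Cd79b (chromosome 11, 106311341 to 106314762, minus strand) 0%, and Ms4a1 (chromosome 19, 11249675 to 11266241, minus strand) 2.34%. Cd79a (chromosome 7, 24897381 to 24902197, plus strand) shared 12.2% with Gm32220. Mzb1 (chromosome 18, 35647267 to 35649367, minus strand) overlaps the exons of SPATA24 on the same strand and shared 55.1% of its words with it, so its counts are uncertain.

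Libraries held between 24839555 and 36781553 counts. Levels are CPM, a gene's counts brought to 1 common library total after the libraries were scaled to each other, or RPKM, which is CPM per kilobase of exon, where genes are set against each other. A pair of libraries stood apart. The input of No Odour pool 4 had the highest summed level of the 21 inputs for macrophage (80.1 CPM), neutrophil (75.2 CPM), erythroid (719 CPM) and supporting cell (10747 CPM) markers. The pulldown of Bacon pool 1 had the lowest summed macrophage (62.3 CPM), neutrophil (83.6 CPM) and erythroid (1329 CPM) levels of the 21 pulldowns and the highest supporting cell level (4516 CPM). The results that rest on these libraries are given with and without them. Ribosomal RNA genes and genes resembling them took 28.1 ± 4.21% of input counts in the No Odour group (SD, n = 5), against 15.8 ± 2.44% in NCD (n = 6), 11.8 ± 1.62% in Bacon and 15.6 ± 4.66% in HFD (n = 5 each).

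The light chain gene stood far above the others per length. Over the 21 inputs, Igkc was at 34.7 ± 10.9 RPKM (SD), Igha at 6.15 ± 2.25, Ighm at 4.42 ± 0.68 and Jchain at 0.874 ± 0.335. The other 4 genes followed at 0.387 ± 0.155 for Cd79a, 0.306 ± 0.053 for Ms4a1, 0.270 ± 0.106 for Cd79b and 0.237 ± 0.135 for Mzb1. The spreads of these 4 neighbours overlapped, and their order was not tested. A single plasma cell can hold far more antibody RNA than a B cell, and in bulk tissue a change in the number of cells cannot be told apart from a change in RNA per cell. Median counts per input were 539 for Igkc, 399 for Igha, 267 for Ighm, 63.2 for Ms4a1 and 60.0 for Jchain, but 15 for Cd79a, 11 for Cd79b and 8 for Mzb1, so differences in the last 3 could be seen only if large.

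B cell and plasma cell RNA was present in every group. Of 18 B cell markers beyond the 8 genes, all had counts in 19 of the 21 inputs and 16 were tested. Of the plasma cell markers, Tnfrsf17, which encodes a survival receptor of these cells, was at 0 in at least 1 input of every group and was too low to be tested.

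The secretory antibody genes separated the food odours in whole-tissue RNA. Igha, Igkc and Jchain were higher in both the Bacon and the HFD inputs than in the NCD inputs, each by about the same factor in the 2 groups, whereas Ighm and the B cell genes did not pass the test with all pools. One F test per gene across the 3 food odours called 3 of the 8 genes, against 1.54% of all tested genes. At an unadjusted p under 0.05 were 6 of the 8, beside 4244 of all 21168 tested genes. The adjusted p was 1.09e-08 for Igha, 4.89e-06 for Igkc and 0.000163 for Jchain (edgeR quasi-likelihood test with Benjamini-Hochberg adjustment, as for all adjusted p below). The comparisons of odours in pairs were added after these values had been seen, and those that share the NCD or the No Odour libraries are not independent of each other.

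Igha encodes the constant region of the IgA heavy chain. Its input level in the NCD pools ran from 9.94 CPM through a median of 10.2 to 12.3, and the No Odour pools were at 10.4, 10.4, 11.1, 14.9 and 11.6 CPM. The Bacon pools were at 19.5, 20.98, 24.5, 24.0 and 22.3 CPM, and the HFD pools at 18.5, 22.1, 24.5, 23.3 and 23.1 CPM. Every Bacon and HFD pool lay above every NCD and No Odour pool, with the highest of the latter being No Odour pool 4. How many of all genes separate the pools in this way was not counted. Such separation, here and in the genes below, is therefore a description. The difference from NCD was 1.08 on the log2 scale for Bacon (SE 0.09, 95% interval 0.89 to 1.26, adjusted p = 6.92e-08), which is 2.11-fold, and 1.08 for HFD (SE 0.09, adjusted p = 6.42e-08), or 2.12-fold. HFD and Bacon inputs differed by 0.01 (95% interval -0.18 to 0.19).

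Jchain, whose product joins IgA and IgM monomers, followed the same order at a lower level. NCD inputs ranged from 0.759 to 1.73 CPM with a median of 1.36, and No Odour inputs were at 1.79, 2.10, 1.30, 2.05 and 1.67 CPM. Bacon inputs were at 2.73, 2.80, 3.54, 2.82 and 3.68 CPM, and HFD inputs at 2.35, 2.28, 3.14, 2.82 and 3.29 CPM. Here too no Bacon or HFD pool overlapped the NCD and No Odour pools. The Bacon inputs exceeded NCD by 1.24 (log2, SE 0.17, adjusted p = 0.000135) and the HFD inputs by 1.08 (log2, SE 0.17, adjusted p = 0.00161).

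Igkc, the kappa light chain constant gene, is used by antibodies of every class. Its inputs ran from 10.7 to 13.0 CPM in NCD (median 12.3) and stood at 14.2, 15.8, 12.8, 22.4 and 12.6 CPM in No Odour. Bacon inputs were at 20.9, 23.9, 24.8, 24.2 and 24.6 CPM, and HFD inputs at 19.8, 22.2, 23.8, 25.0 and 28.0 CPM. Bacon and HFD did not overlap NCD, but No Odour pool 4 fell among them. The difference from NCD was 0.97 in Bacon (log2, SE 0.11, adjusted p = 1.55e-05) and 0.98 in HFD (log2, SE 0.11, adjusted p = 2.13e-05).

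**Figure D1:**
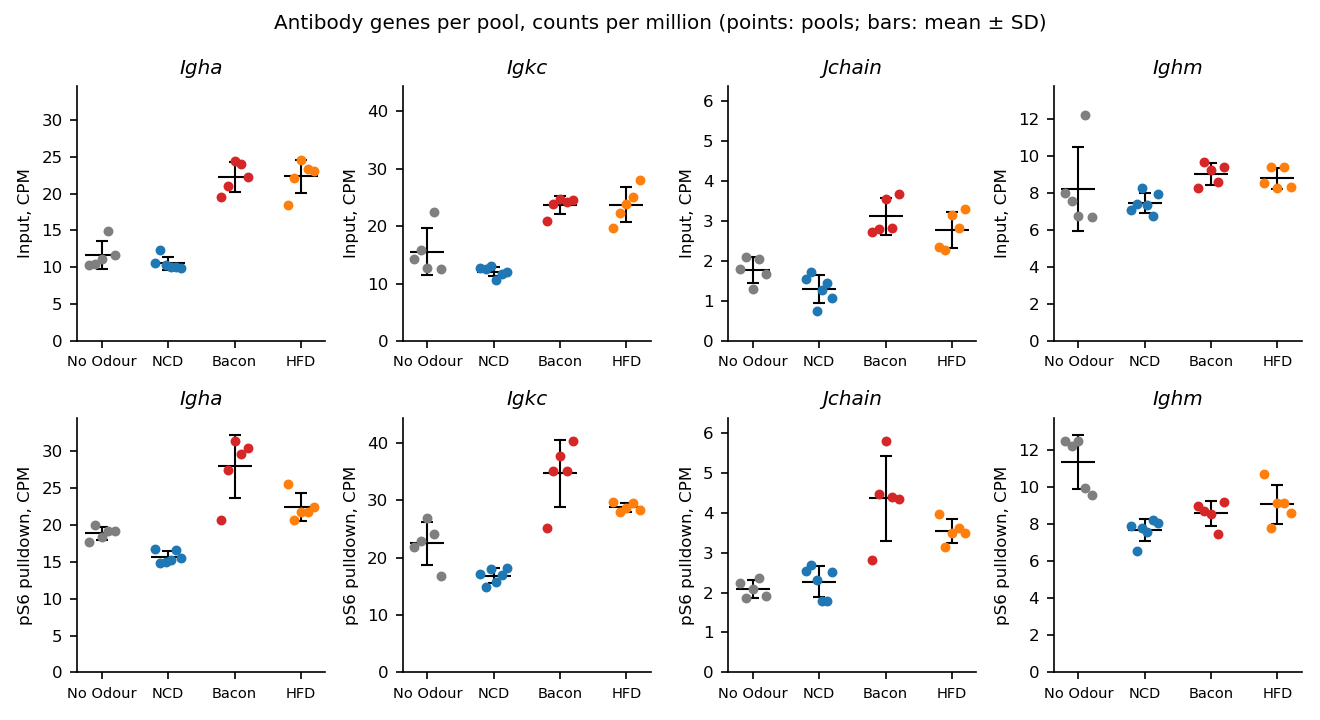
CPM of Igha, Igkc, Jchain and Ighm in each pool (points) by odour group, with the mean and SD of each group, for inputs and pulldowns. Igha inputs of the Bacon and HFD pools lie between 18.5 and 24.5 CPM, above all NCD and No Odour inputs. Ighm inputs of these pools lie narrowly above NCD and overlap No Odour.

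Ighm, the IgM heavy chain gene, differed less. Its NCD inputs ranged from 6.75 to 8.24 CPM with a median of 7.38. Bacon inputs stood at 8.28, 9.65, 9.24, 8.57 and 9.40 CPM and HFD inputs at 8.54, 9.38, 8.27, 9.37 and 8.33 CPM, above every NCD pool by a narrow margin, while No Odour inputs, at 7.97, 7.54, 6.77, 12.2 and 6.70 CPM, overlapped all of them. The difference from NCD was 0.27 in Bacon (log2, 95% interval 0.05 to 0.50, adjusted p = 0.152) and 0.24 in HFD (log2, 95% interval 0.00 to 0.47, adjusted p = 0.754). Without No Odour pool 4, whose Ighm input stood apart in its group, the Bacon difference was 0.27 and passed (adjusted p = 0.0186). The ratio of Igha to Ighm counts per exon length was 1.00 ± 0.11 in NCD inputs (SD, n = 6) and 1.03 ± 0.16 in No Odour (n = 5), against 1.75 ± 0.18 in Bacon and 1.80 ± 0.23 in HFD (n = 5 each).

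The B cell receptor genes and Ms4a1, which encodes the surface protein CD20, were low and overlapped between the food odours. Ms4a1 inputs of Bacon (1.92 to 2.73 CPM) lay above those of No Odour (1.51 to 1.87 CPM). Cd79a inputs ran from 0.339 to 0.542 CPM in NCD, 0.362 to 0.636 in Bacon and 0.293 to 1.07 in HFD, and HFD exceeded NCD by 0.78 without passing the test (log2, 95% interval 0.19 to 1.36, adjusted p = 0.561). Cd79b inputs were at 0.451 ± 0.124 CPM in NCD (SD, n = 6), 0.362 ± 0.149 in Bacon and 0.405 ± 0.184 in HFD (n = 5 each). Ms4a1 inputs were at 1.72 ± 0.26, 2.23 ± 0.32 and 1.98 ± 0.25 CPM in the same order, with a Bacon to NCD difference of 0.38 (log2, adjusted p = 0.106). Mzb1, whose product helps fold antibody in the endoplasmic reticulum, had a difference of 0.30 between Bacon and NCD with a 95% interval from -0.60 to 1.20, which is too wide to place it with either set of genes.

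In all, Bacon against NCD inputs called 3 of the 8 genes, all higher, beside 2.41% of all tested genes. HFD against NCD inputs called the same 3, beside 0.241%. HFD against Bacon inputs called 0 of the 8 by edgeR and 0 by DESeq2, beside 0.463% of all genes. At an unadjusted p under 0.05 was 1 of the 8, beside 3861 of all 21168 genes. The median log2 difference of the 8 genes was 0.34 for Bacon over NCD and 0.62 for HFD over NCD, where the median of all tested genes was 0.00 and 0.01.

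The pulldown libraries repeated the order of the food odours in these 3 genes. Igha pulldowns ran from 14.8 to 16.7 CPM in NCD (median 15.4) and stood at 20.7, 27.5, 31.5, 29.7 and 30.4 CPM in Bacon and 25.6, 20.7, 21.7, 21.7 and 22.4 CPM in HFD. No Odour pulldowns were at 17.7, 20.0, 18.4, 19.2 and 19.1 CPM, above NCD and below every Bacon and HFD pool. Bacon exceeded NCD by 0.83 (log2, SE 0.08, adjusted p = 7.48e-07) and HFD exceeded it by 0.52 (log2, SE 0.08, adjusted p = 0.000617).

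Igkc pulldowns were at 25.1, 35.1, 37.8, 35.1 and 40.4 CPM in Bacon and 29.7, 27.9, 28.6, 29.5 and 28.2 CPM in HFD, against 14.8 to 18.3 CPM in NCD. The Bacon difference was 1.04 (log2, adjusted p = 8.92e-07) and the HFD difference 0.77 (log2, adjusted p = 6.85e-05). Jchain pulldowns were at 2.81, 4.46, 5.80, 4.39 and 4.33 CPM in Bacon, 3.96, 3.13, 3.50, 3.61 and 3.48 CPM in HFD and 1.78 to 2.69 CPM in NCD, again without overlap. For Jchain the Bacon difference was 0.93 (log2, adjusted p = 0.00104) and the HFD difference 0.64 (log2, adjusted p = 0.0362), the latter called in 12 of the 21 fits that each left out 1 pool.

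These 3 were the members called in the pulldowns of Bacon against NCD, where 0.397% of all genes were called, and of HFD against NCD, where 0.94% were. HFD against Bacon pulldowns called 0 of the 8 by edgeR, beside 0.765% of all genes, while DESeq2 called 1, Igha (adjusted p = 0.0184). By edgeR 2 of the 8 were at an unadjusted p under 0.05, beside 2502 of all 21168 genes. The Igha difference was -0.32 (log2, 95% interval -0.49 to -0.14, adjusted p = 0.0930) and that of Igkc -0.27 (adjusted p = 0.323). Bacon pool 1, whose pulldown stood apart, was the lowest Bacon pool for Igha, Igkc and Jchain. Without it the 2 genes were lower in HFD than in Bacon by the test, Igha at -0.41 (adjusted p = 0.000356) and Igkc at -0.37 (adjusted p = 0.0233), and the Bacon differences from NCD were 0.93 for Igha, 1.14 for Igkc and 1.06 for Jchain.

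**Figure D2:**
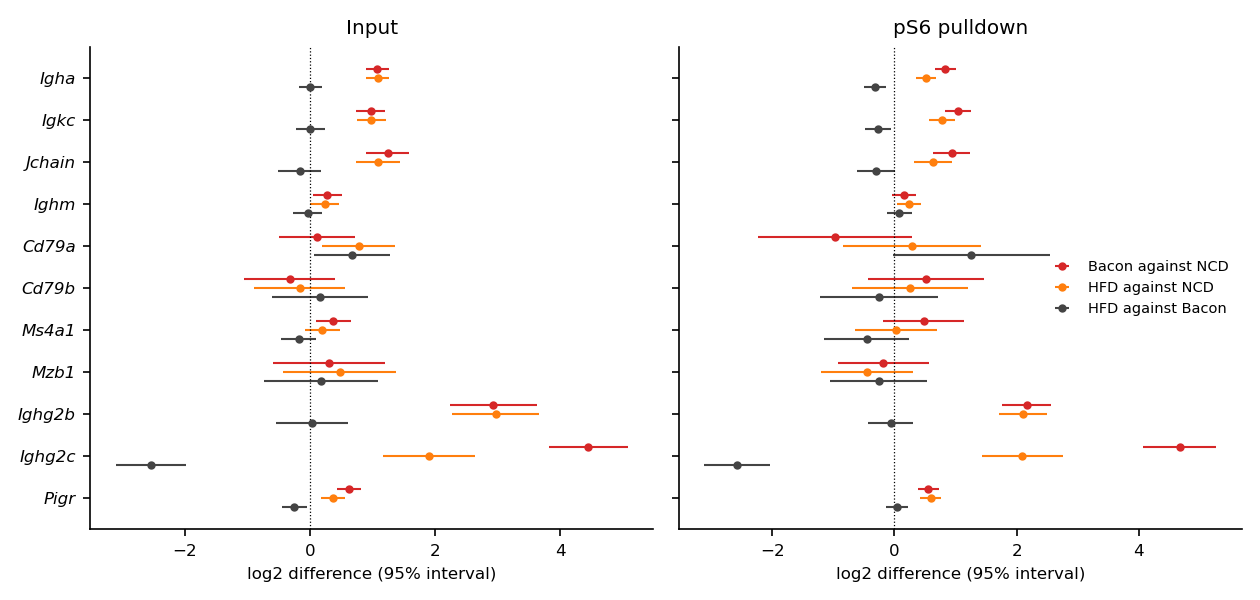
Log2 differences between food odours with 95% intervals for the 8 genes and for Ighg2b, Ighg2c and Pigr, in inputs (left) and pulldowns (right). Igha sits at 1.08 over NCD in both the Bacon and the HFD inputs, and Ighg2c at 4.45 in Bacon and 1.90 in HFD.

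Marker genes of other cell types were compared between the food odours in the same libraries. None of the 10 T cell, 8 macrophage, 8 neutrophil, 5 erythroid, 8 MHC class II or 4 supporting cell genes was called between food odours in the inputs or pulldowns, where 0.241 to 2.41% of all genes were called in a comparison of 2 odours, so few or no calls would be made among lists of this size at that rate. Summed input levels of the T cell, macrophage, neutrophil and erythroid markers overlapped between the food odours. Macrophage markers ran from 51.5 to 54.7 CPM in NCD, 47.5 to 54.8 in Bacon and 51.2 to 62.2 in HFD. Erythroid markers ran from 398 to 507, 357 to 474 and 323 to 648 CPM. Supporting cell markers did not overlap between NCD (8326 to 9084 CPM) and Bacon (6974 to 8251). MHC class II markers did not overlap between Bacon (236 to 268 CPM) and HFD (273 to 315). Of 8 olfactory sensory neuron genes, Omp, a marker of mature neurons, fell by 0.32 in Bacon against NCD inputs (log2, adjusted p = 0.0387). Of 6 gland genes, Muc5b, a mucin, rose by 0.74 in the same comparison (log2, adjusted p = 0.0148). Bpifb1 rose by 0.45 in HFD against NCD pulldowns (log2, adjusted p = 0.0127), and Dmbt1 differed by -1.23 in HFD against Bacon pulldowns (log2, adjusted p = 0.00883). The part of gland or neuron content in the antibody gene differences was not tested.

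The lists of other B cell and plasma cell markers were counted in the same way, without a test of the difference between the lists. None of the 16 tested B cell markers was called between food odours, by the F test or in any pair, which is also what the share of all genes called would give for a list of this size. Their summed input level had medians of 50.5, 48.1, 46.8 and 51.4 CPM in No Odour, NCD, Bacon and HFD. That of the plasma cell list had medians of 161, 127, 136 and 139 CPM, highest in No Odour. The plasma cell sums had means of 153, 128, 137 and 142 CPM in the same order. Xbp1 alone, a gene also used by other secretory cells, held 90.6, 71.6, 72.4 and 78.4 CPM of them. Both of the tested genes of early bone marrow B cells were also uncalled, and of 6 germinal centre genes only Mybl1 was called, at 0.24 in Bacon over NCD inputs (log2, adjusted p = 0.0494). Of the 17 tested plasma cell genes, 2 were called higher in Bacon over NCD inputs (2.41% of all genes called) and 3 in HFD over NCD inputs (0.241%). In pulldowns 5 were called higher in Bacon over NCD (0.397% of all genes) and 4 in HFD over NCD (0.94%). Those named are the IgG heavy chain genes Ighg2b and Ighg2c, the lambda light chain gene Iglc3, and in pulldowns Derl3 and Fkbp11, which serve protein folding and disposal in the endoplasmic reticulum. All of these counts include Ighg2c, which passed the filter on low counts mainly through the Bacon and HFD libraries. Set beside the shares of all genes, the counts are therefore a description.

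Fkbp11 pulldowns were at 2.40 ± 0.46 CPM in NCD (SD, n = 6), 3.90 ± 0.56 in Bacon and 4.11 ± 0.27 in HFD (n = 5 each), with differences from NCD of 0.70 (log2, adjusted p = 0.00812) and 0.78 (log2, adjusted p = 0.00159). Derl3 pulldowns were at 11.1 ± 0.79 CPM in NCD (SD, n = 6), 17.1 ± 3.63 in Bacon and 16.5 ± 1.24 in HFD (n = 5 each). No Odour pulldowns of Derl3 were at 5.98 ± 1.01 CPM (SD, n = 5), below every NCD pool, and those of Fkbp11 at 1.80 ± 0.17. For Igha the order was the other way, with No Odour pulldowns above NCD. Xbp1 encodes a transcription factor that drives the folding machinery in plasma cells but is also used by other secretory cells. Its inputs were at 90.6 ± 9.54 CPM in No Odour (SD, n = 5) and 71.6 ± 5.15 in NCD (n = 6). They were at 72.4 ± 2.71 in Bacon and 78.4 ± 5.98 in HFD (n = 5 each).

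Ighg2c carried the largest difference between food odours of any plasma cell gene tested, and it set Bacon apart from HFD. Its Bacon inputs were at 2.23, 2.06, 3.19, 2.75 and 3.14 CPM and its HFD inputs at 0.457, 0.422, 0.283, 0.493 and 0.662 CPM, while NCD inputs ran from 0 to 0.216 CPM and No Odour inputs from 0.0339 to 0.0729. Each of the 3 levels was free of overlap with the next. Bacon exceeded NCD by 4.45 (log2, SE 0.31, adjusted p = 1.72e-09), HFD exceeded NCD by 1.90 (log2, SE 0.36, adjusted p = 0.0109), and HFD stood below Bacon, at -2.55 (log2, SE 0.27, adjusted p = 2.14e-06). The call of HFD over NCD was lost without HFD pool 6 (adjusted p = 0.0531) and with the pool number as a block, at 1.87. One NCD input held no count, so the fitted sizes against NCD depend on the prior count. Ighg2c passed the filter on low counts mainly through the Bacon and HFD libraries, in which it was high. Its tests against NCD therefore cannot decide that difference, and those values are a description.

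The pulldowns gave the same order for Ighg2c, with 3.81 to 7.29 CPM in Bacon, 0.812 to 1.18 in HFD and 0.0956 to 0.380 in NCD. HFD against Bacon was -2.58 (log2, adjusted p = 6.36e-07). Ighg2c took 7.26% of all heavy chain counts in Bacon inputs, 1.36% in HFD, 0.605% in NCD and 0.249% in No Odour, as group means. Igha took 60.8 ± 2.08% in Bacon and 65.2 ± 2.76% in HFD (SD, n = 5 each), 54.4 ± 2.74% in NCD (n = 6) and 55.6 ± 3.66% in No Odour (n = 5).

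Ighg2b, the close neighbour whose sequence is printed above, behaved otherwise. Its inputs ran from 1.12 to 2.22 CPM in Bacon and from 1.18 to 2.03 in HFD, against 0.0521 to 0.342 in NCD and 0.0750 to 0.489 in No Odour. Bacon and HFD overlapped each other and neither overlapped NCD or No Odour. The difference from NCD was 2.93 in Bacon (log2, adjusted p = 1.28e-05) and 2.97 in HFD (log2, adjusted p = 1.48e-05), and HFD differed from Bacon by 0.03 (95% interval -0.55 to 0.61).

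**Figure D3:**
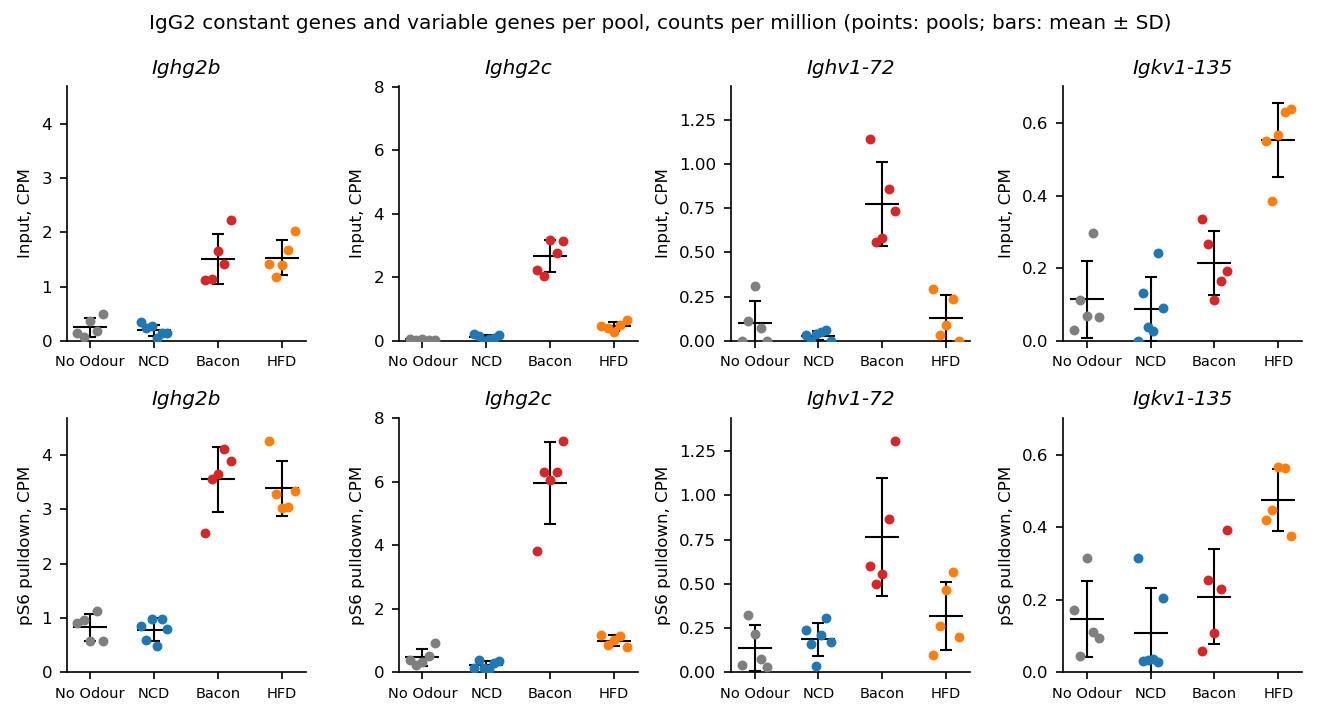
CPM of Ighg2b, Ighg2c, Ighv1-72 and Igkv1-135 in each pool (points) by odour group, for inputs and pulldowns. Ighg2c is high in the 5 Bacon pools (2.06 to 3.19 CPM in inputs) and lower in HFD (0.283 to 0.662), whereas Ighg2b reaches the same range in both.

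Variable segments differed between groups as well. The table lists 348 heavy and light chain V genes, of which 252 had a count somewhere and 9 were tested. Their summed input level was 4.67 ± 1.29 CPM in No Odour (SD, n = 5), 4.07 ± 0.53 in NCD (n = 6), 10.4 ± 1.46 in Bacon and 9.65 ± 1.67 in HFD (n = 5 each). Inputs held counts of 49.6, 55.0, 91.4 and 86.6 V genes on average, in the same order. Their V counts were 136, 132, 356 and 309 on average. The number of V genes with a count depends on that total, so it does not measure how varied the segments were. The V genes with the highest mean input level were Igkv1-110, Ighv3-6 and Igkv1-117.

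Igkv1-110 was higher than in NCD by 1.51 in Bacon inputs and by 1.72 in HFD inputs (log2), its F test across food odours having an adjusted p of 0.000825. For Ighv3-6 that adjusted p was 0.294 and for Igkv1-117 it was 0.763. V genes share long stretches with one another, and 63.6% of the 31-base words of Igkv1-110 recurred in other genes, so reads may have been split among relatives.

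A pair of V genes, picked after their values had been seen, each peaked in a single group. Ighv1-72 inputs were at 1.14, 0.556, 0.583, 0.855 and 0.733 CPM in Bacon and no higher than 0.308 CPM in any other pool. Igkv1-135 inputs were at 0.550, 0.385, 0.566, 0.631 and 0.638 CPM in HFD and no higher than 0.335 CPM elsewhere. Both passed the filter on low counts mainly through the group in which they were high, so these values are a description with no test. Ighv1-72 pulldowns were at 0.766 ± 0.335 CPM in Bacon (SD, n = 5). Shared words made up 98.1% of Ighv1-72 and 57.7% of Igkv1-135, so the names of these segments are uncertain.

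Pigr, the receptor of epithelial and gland cells that takes polymeric IgA up and releases it into mucus, was the single one of 7 tested IgA transport and homing genes called between food odours. Its inputs ran from 25.2 to 27.9 CPM in NCD and from 38.9 to 42.1 in Bacon, with HFD between them at 30.6 to 41.7. Bacon exceeded NCD by 0.63 (log2, SE 0.09, adjusted p = 0.000511), and HFD differed from NCD by 0.37 without passing the test. In pulldowns both passed, with 0.56 for Bacon (log2, adjusted p = 0.000363) and 0.59 for HFD (log2, adjusted p = 0.000113).

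The inputs were also set against No Odour. No Odour inputs carried more ribosomal RNA, and their pool 4 stood apart. Bacon over No Odour inputs called 4 of the 8 genes, all higher, with 38.5% of all genes called: Igha at 0.93 (log2, adjusted p = 6.73e-07), Jchain at 0.81 (adjusted p = 0.000765), Igkc at 0.61 (adjusted p = 0.000327) and Ms4a1 at 0.42 (adjusted p = 0.0218). HFD over No Odour inputs called 3, beside 20.7% of all genes: Igha at 0.94 (log2, adjusted p = 9.99e-07), Jchain at 0.64 (adjusted p = 0.0121) and Igkc at 0.61 (adjusted p = 0.00153). Ms4a1 in Bacon lost its call in 4 of the 21 fits that left out a pool, No Odour pool 4 and Bacon pool 1 among them. Without No Odour pool 4, Ighm passed as higher in Bacon, at 0.30 (adjusted p = 0.00680), and in HFD, at 0.27 (adjusted p = 0.0308).

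NCD over No Odour inputs called Igkc alone, lower by -0.36 (log2, adjusted p = 0.0257), beside 22.5% of all genes. Without No Odour pool 4 it was -0.21 and did not pass (adjusted p = 0.104). Taking the 3 food odours as a mean over No Odour called 2 of the 8 genes in inputs, Igha at 0.57 (log2, adjusted p = 2.23e-05) and Igkc at 0.29 (adjusted p = 0.0233), beside 36% of all genes, and 2 in pulldowns, beside 25.1%. The pulldown calls were Jchain, higher by 0.65 (log2, adjusted p = 0.00110), and Ighm, lower, at -0.43 (log2, adjusted p = 0.000218). When the ribosomal RNA share was added as a covariate, 0 of the 8 genes passed in inputs of Bacon, of NCD or of the mean of the food odours over No Odour, although the Igha value was 0.91 in Bacon. No Odour inputs had the highest share, and how many of all genes passed with that covariate was not counted. The loss of calls therefore cannot be read as particular to these genes. In HFD over No Odour inputs 2 of the 3 calls were kept with the covariate, Igha at 0.92 and Igkc at 0.996, and Jchain, at 0.963, did not pass. The Bacon and HFD differences from NCD in Igha, Igkc and Jchain inputs all stayed past the threshold with that covariate, Igha at 1.07 and 1.08.

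The pulldown was compared with the input of the same pool to see whether S6-phosphorylated ribosomes held more or less of each RNA. In the absence of odour, Igha, Igkc and Ighm were higher in the pulldown and Cd79a and Ms4a1 lower. These are 5 of the 8 genes, beside 59.5% of all genes called in this comparison, so their number is near that background. Over all 21 pools the pulldown exceeded the input in 21 for Igkc, 20 for Jchain, 17 for Igha and 12 each for Ighm and Mzb1, but in 4 for Cd79b, 1 for Cd79a and 0 for Ms4a1.

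Igha had per-pool log2 ratios of 0.77, 0.93, 0.73, 0.37 and 0.71 without odour, all above 0, and a fitted ratio of 0.70 (log2, SE 0.09, adjusted p = 1.84e-07). The fitted ratio was 0.55 for Igkc (adjusted p = 2.32e-05) and 0.49 for Ighm (adjusted p = 0.000753). Jchain, at 0.24, Mzb1, at 0.64, and Cd79b, at -0.42 (95% interval -1.38 to 0.54, adjusted p = 0.456), did not pass. Ms4a1 was at -1.48 (log2, SE 0.25, adjusted p = 1.79e-05) and Cd79a at -1.98 (log2, SE 0.50, adjusted p = 0.00133), the latter on 2 to 9 pulldown counts a pool.

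Markers of other cells differed between pulldown and input in the same libraries. Without odour, 7 of 8 macrophage genes, 5 of 8 neutrophil genes and 5 of 5 erythroid genes were higher in the pulldown, with median log2 ratios of 0.99, 0.93 and 2.11, and 4 of 4 supporting cell genes were lower, with a median of -1.86. Summed erythroid levels ran from 362 to 719 CPM in No Odour inputs and from 1561 to 2262 in their pulldowns, and no marker of these 4 lists was at 0. Among 16 B cell markers, 3 were higher in the pulldown and 6 lower, with Cd72 at 1.22 and Vpreb3 at 0.85, but Blnk at -0.71, Spib at -1.63 and Pax5 at -0.93 (log2). Of the plasma cell list, 5 genes of 17 were higher and 3 lower, with Xbp1 at -0.74 (log2). In this comparison 59.5% of all genes were called. The numbers called in the B cell and plasma cell lists do not exceed that share. The part of these other cells in the ratios was not tested.

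The ratio was then compared between odours, where the number of the 8 genes called was near the share of all genes: 2 in Bacon against No Odour, both lower, beside 22.5% of all genes, and 1 in HFD, beside 15.7%. All 3 calls were lost when the ribosomal RNA share was a covariate, with Igha in HFD at -0.63 (adjusted p = 0.114). The share of all genes that lost their call with that covariate was not counted. For Igha, per-pool log2 ratios ran from 0.27 to 0.71 in NCD (median 0.62), stood at 0.09, 0.39, 0.36, 0.31 and 0.45 in Bacon, and fell around 0 in HFD, at 0.46, -0.10, -0.17, -0.10 and -0.04. HFD pool 1 was the only HFD pool with a positive value. Against No Odour the ratio was lower in HFD, at -0.69 (log2, SE 0.12, adjusted p = 0.000603), and in Bacon, at -0.38 (log2, SE 0.12, adjusted p = 0.0232), the latter at -0.32 and not passing without Bacon pool 1 (adjusted p = 0.0500), and also lost without No Odour pool 2 or 3. Bacon and HFD had higher Igha inputs than No Odour, and the input is the divisor of this ratio. Their mean inputs were alike, at 22.25 CPM in Bacon and 22.32 in HFD, while their mean log2 ratios were 0.32 and 0.01. The part of the input level in the ratio was not tested.

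Ighm had ratios of 0.65, 0.69, 0.88, -0.29 and 0.51 without odour, with pool 4 the low one, and -0.20 to 0.11 in Bacon. The change was -0.56 in Bacon (log2, SE 0.16, adjusted p = 0.0137), which did not pass without No Odour pool 3 (adjusted p = 0.0611). It was -0.44 in NCD (adjusted p = 0.0603) and -0.45 in HFD (adjusted p = 0.0616), and without No Odour pool 4 both of these passed, each at -0.64 (adjusted p = 0.00260 and 0.00219).

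In NCD the ratio changed from No Odour in 0 of the 8 genes by edgeR, beside 13.1% of all genes, and in 1 by DESeq2 (Ighm, adjusted p = 0.0436). By edgeR 2 of the 8 were at an unadjusted p under 0.05, beside 5906 of all 21168 genes. Among the 3 food odours 0 of the 8 ratios differed by edgeR, beside 0.132% of all genes. Igha alone of the 8 was at an unadjusted p under 0.05 (adjusted p = 0.122), beside 1470 of all 21168 genes. DESeq2 called Igha (adjusted p = 0.0249), as did edgeR without No Odour pool 4 (adjusted p = 0.0334).

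**Figure D4:**
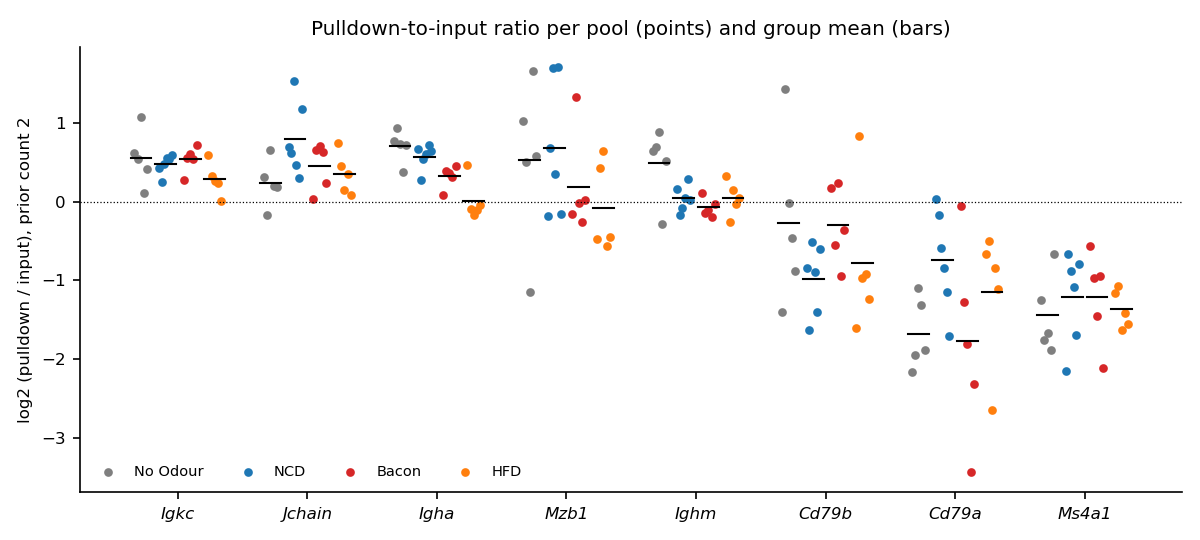
Log2 ratio of pulldown to input CPM for the 8 genes in each pool (points) by odour group, with a prior count of 2 added. Igkc lies above 0 in all 21 pools and Ms4a1 below 0 in all 21, and Igha falls from 0.70 on average without odour to 0.01 in HFD.

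The surface genes and Mzb1 gave no call for any odour in the ratio. Ms4a1 pulldowns were at 0.620 ± 0.302 CPM in No Odour (SD, n = 5), 0.732 ± 0.251 in NCD (n = 6), 1.01 ± 0.51 in Bacon and 0.745 ± 0.207 in HFD (n = 5 each), each below its own input. Cd79a pulldown counts ran from 0 to 16 per library, Cd79b from 2 to 20 and Mzb1 from 3 to 18, and intervals were wide, as for Cd79a in HFD against Bacon pulldowns at 1.26 (log2, 95% interval -0.03 to 2.54).

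**Figure D5:**
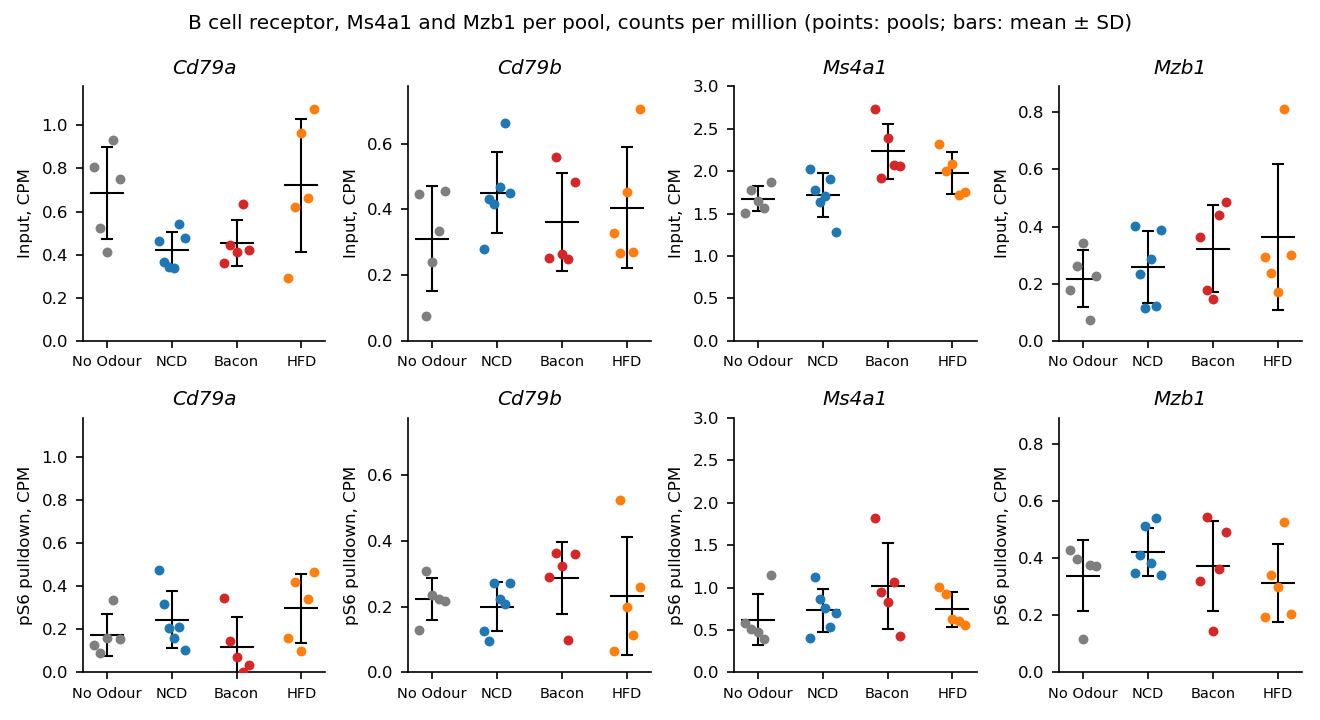
CPM of Cd79a, Cd79b, Ms4a1 and Mzb1 in each pool (points) by odour group, with the mean and SD of each group, for inputs and pulldowns. All groups overlap except that Ms4a1 inputs of Bacon lie above those of No Odour. Ms4a1 pulldowns, at group means of 0.620 to 1.01 CPM, lie below the inputs, at 1.68 to 2.23 CPM.

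Replicate spread separated the abundant from the scarce genes. The median coefficient of variation within groups was 7.67% for Ighm, 8.81% for Igha, 10.4% for Igkc, 16.9% for Jchain and 21.4% for Ms4a1, against 39.7% for Cd79b, 44.5% for Mzb1 and 48.2% for Cd79a. For Igha and Igkc the variance between pools was 5.86 and 7.75 times that of counting alone, as medians over groups.

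Across the 21 inputs, which share the odour groups above, the genes most like Igha by Pearson correlation of log2 CPM were Igkc (0.94), Ighg2b (0.92), Igkv3-7 (0.92), Igkv1-110 (0.88) and Jchain (0.88). Igkv3-7 was scarce, at a mean of 0.137 CPM in inputs, and 62.9% of its 31-base words recurred in other genes. Those most like Cd79a were Cd3e, a T cell receptor subunit gene, (0.79), Gm14488 (0.77), Kdelr1 (0.77), Pnkd (0.76) and Sfrp2 (0.76). Igha correlated with Ighm at 0.61 and with Cd79a at 0.24, and Cd79a correlated with Cd79b at 0.18. These are descriptions over 21 libraries and were not tested.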

How the data were processed

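RNA of 21 pools was measured as an input and a pulldown library each (42 libraries; 5 No Odour, 6 NCD, 5 Bacon and 5 HFD pools). Per the labels, the authors estimated counts with salmon and GRCm38, and the deposited table holds these expected counts, of which 30.9% are not whole numbers. Their notes also name DESeq2 1.26. All columns were matched to a sample by name, with 0 left over. No labels mark batches, and filters on reads are not given in the sources used here.

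Counts were rounded to whole numbers and tested with edgeR 4.0.16 (TMM scaling, filterByExpr with a minimum count of 10, robust quasi-likelihood test) and limma 3.58.1 in R 4.3.3, with Benjamini-Hochberg adjustment across the 21168 genes that passed the filter and a threshold of 0.05. Gene symbols came from the GENCODE M21 annotation; 556 of the 44674 identifiers matched no symbol and stayed in the fits under their identifier. Ratios used 1 fit of all 42 libraries with a term for each pool, and inputs and pulldowns were each fitted on their 21 libraries by odour group. CPM use TMM-scaled library sizes, per-pool log2 ratios a prior count of 2. The biological coefficient of variation was 12.0% in the ratio fit, 11.7% in the input fit and 13.6% in the pulldown fit. Fits were tested on simulated data before use.

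The genes and marker lists were chosen with earlier results of these data known. Named were the 8 genes, called list genes (at most 4 per list and comparison), the 3 most abundant V genes and the 5 genes most like Igha and Cd79a. The V genes Ighv1-72 and Igkv1-135, the genes named only by value and the 6 comparisons of food odours in pairs were chosen after the data were seen.

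Alternatives were DESeq2 1.42.0, its size factors, no filter, a threshold of 0.001, the ribosomal RNA share as a covariate, ribosomal RNA genes removed, fits on the compared groups alone, each of the 21 pools left out, and the replicate block added or removed. Pulldown and input of a pool come from the same tissue, and their deviations from the group means correlated at a median of 0.0142 (range -0.0792 to 0.211). The 90 same-group library pairs all differed by more than sampling noise (chi-square per degree of freedom at least 3.33).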

Additional observations from a re-analysis of the deposited data

Results flagged for a closer look

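The 96 sets of pool values (8 genes, 3 quantities, 4 groups) were searched for a highest or lowest pool far from its neighbours by Dixon's criterion, which chance meets in about 1 in 20 groups, and 13 met it. In the inputs, No Odour pool 4 was highest for Igha (14.9 CPM, next 11.6) and for Ighm (12.2 CPM, next 7.97), NCD pool 2 for Igha (12.3 CPM, next 10.5), and HFD pool 5 for Mzb1 (0.811 CPM, next 0.302), while Bacon pool 1 was lowest for Igkc (20.9 CPM, next 23.9). In the pulldowns, No Odour pool 4 was highest for Cd79a (0.337 CPM, next 0.157) and No Odour pool 6 for Ms4a1 (1.15 CPM, next 0.581), while Bacon pool 4 was lowest for Cd79b (0.0983 CPM, next 0.289) and No Odour pool 3 for Mzb1 (0.118 CPM, next 0.374). Among log2 ratios, HFD pool 1 was highest for Igha (0.46, next -0.04), HFD pool 2 for Cd79b (0.83, next -0.92) and Bacon pool 2 for Mzb1 (1.33, next 0.02), while HFD pool 3 was lowest for Cd79a (-2.64, next -1.11).

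Effects that differed between groups by the edgeR test were those of food odour in inputs for Igha (adjusted p = 1.09e-08), Igkc (adjusted p = 4.89e-06) and Jchain (adjusted p = 0.000163), and the change of the pulldown to input ratio from No Odour for Igha in Bacon (adjusted p = 0.0232) and HFD (adjusted p = 0.000603) and for Ighm in Bacon (adjusted p = 0.0137). The causes were not tested.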

How the results depend on the processing

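Igha and Igkc kept their calls in inputs and pulldowns of Bacon and HFD against NCD under every alternative run. Of the 134 counts of called genes under alternatives other than leaving out a pool, 116 stayed within 1.5 times the main count. When the ribosomal RNA share was added as a covariate, the count became 0 for the ratio change in Bacon and in HFD and for inputs of any odour, NCD and Bacon over No Odour (for HFD inputs over No Odour it was 2), and 1 for pulldowns of any odour, and the Igkc difference of NCD over No Odour inputs turned from -0.36 to 0.0124. With fits on the compared groups alone it became 0 for the ratio in Bacon and for NCD inputs. At a threshold of 0.001 it was 0 for the ratio in Bacon and for NCD inputs and 1 for any odour in inputs, any odour in pulldowns and HFD inputs over No Odour. DESeq2 gave 1 for the ratio in NCD, 2 in HFD, 1 among food odours and 1 for HFD against Bacon pulldowns, and no filter gave 1 for the ratio in NCD. The causes were not tested.

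Leaving out 1 pool at a time, the count ran from 5 to 5 for the ratio without odour, 0 to 1 for its change in NCD, 0 to 2 in Bacon, 1 to 2 in HFD and 0 to 1 among food odours. It ran from 1 to 3 for inputs of any odour, 0 to 3 for NCD, 3 to 4 for Bacon, 3 to 4 for HFD and 3 to 4 for the F test among food odours, and 2 to 4 for pulldowns of any odour. Between food odours it ran from 3 to 4 (Bacon over NCD), 3 to 3 (HFD over NCD) and 0 to 0 (HFD against Bacon) in inputs, and 3 to 3, 2 to 3 and 0 to 2 in pulldowns. The pools that moved a count by over 1.5 times were No Odour 2 and 3 and Bacon 1 (ratio in Bacon), No Odour 4 (ratio in NCD, HFD and among foods), HFD 1 (ratio in HFD and among foods), No Odour 1, 2, 3 and 6 (inputs of any odour), No Odour 3 and 4, NCD 2 and 4 and HFD 1 (NCD inputs), and Bacon 1 (pulldowns of any odour, HFD against Bacon pulldowns).

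The replicate block changed 1 count, that of HFD over NCD pulldowns, to 2 genes (Jchain lost), and Ighg2c in HFD over NCD inputs, at 1.87, was lost too. Removing the pool block from the ratio fit gave 5, 0, 2, 1 and 0 genes, as with it. Across odours, pools with the same number share only that number: their input deviations correlated at a median of 0.0200 (range -0.153 to 0.156, 27 pairs) and their pulldown deviations at 0.00919. Depth limits Cd79a, Cd79b and Mzb1.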

Other observations

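V gene profiles were compared between the inputs and pulldowns. Over 105 V genes, the Spearman correlation of CPM between an input and its own pulldown had a median of 0.454 (range 0.241 to 0.648, 21 pools), against 0.395 with the other pulldowns of its group (range 0.141 to 0.614, 90 pairs) and 0.287 with pulldowns of other groups (330 pairs). The ranges overlap, and the closest pulldown was that of the same pool for 7 of the 21 inputs and that of another pool for the rest. V genes share sequence and libraries share the odour groups, so these are descriptions.

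Heavy chain classes differed between pulldown and input. Ighd, the heavy chain of IgD on naive B cells, took 3.94 ± 1.27% of heavy chain counts in NCD inputs and 0.929 ± 0.293% in NCD pulldowns (SD, n = 6), while Ighg1 took 1.38 ± 0.85% and 3.13 ± 0.87%. Ighm took 38.6 ± 2.66% of heavy chain counts in NCD inputs (SD, n = 6), 24.8 ± 1.96% in Bacon inputs and 25.8 ± 2.24% in HFD inputs (n = 5 each).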
